A study of Mus musculus with 144 samples.

Results

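Among microglia sorted from retinas whose optic nerve had not been crushed, some wells held messenger RNA of Il1a, the gene of the cytokine interleukin 1 alpha, and most did not. All other genes were compared between these wells. A well is a tube with 1 sorted cell, and 54 of the 144 wells of the study came from uncrushed retinas. Reads per 1000000 reads assigned to genes (RPM) were recovered from the deposited FPKM values. Wells with at least 50000 reads were kept, which left 39, and 1 of these was dropped because S100a8 and S100a9, neutrophil alarmin genes, both reached 1000 RPM. Of the remaining 38 wells, 8 had Il1a at 50 RPM or more ("with Il1a") and 30 did not ("without Il1a"). The wells were selected on their measured Il1a, read depth, S100a8 and S100a9, so those values are given below as a description only.

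All wells held Iba1-EGFP reporter cells of strain C57BL/6, from retinas of animals aged 20 to 22 months, spread over 3 plates. Iba1 is also made by other macrophages, so the reporter does not mark microglia alone. The uncrushed group had no treatment, and the other groups were sampled 2 and 4 days after nerve crush (36 and 54 wells). The labels of 18 day 4 wells, all on plate 1, disagree, the title giving day 4 and the treatment day 2, and the title was followed. No label tied a well to an animal, so each group counts as 1 sample. No test was run, and spreads are between wells, which may share an animal.

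Interleukin 1 alpha is an early inflammatory signal of macrophages and microglia. It binds the interleukin 1 receptor, whose adaptor MyD88 activates NF-kB and the mitogen-activated kinases that switch on AP-1. NF-kB in turn induces its own inhibitor, Nfkbia. Early response genes such as Fos, Jun and Egr1 are transcribed within minutes of a stimulus, without new protein synthesis. Many stimuli induce them, handling of living tissue among them, and the time from dissection to sorting is not given in the sources used here. Homeostatic microglia are recognised by surface proteins such as P2ry12 and Tmem119.

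Il1a lies on chromosome 2, 129299610 to 129309972 on the minus strand of GRCm38, with 7 exons in the deposited annotation. The 250 bases before its start are shown because they hold a sequence of the kind that AP-1, the Fos and Jun dimer, binds. Those of Btg2 and Nfkbia, which were among the genes with the highest differences, hold a cAMP response element and a match to the NF-kB site. The sequences are from RefSeq on GRCm38.p6, at chr2:129309973-129310222, chr1:134079156-134079405 and chr12:55492648-55492897. All 3 are on the minus strand and are printed 5′ to 3′ with the match in capitals.
Il1a: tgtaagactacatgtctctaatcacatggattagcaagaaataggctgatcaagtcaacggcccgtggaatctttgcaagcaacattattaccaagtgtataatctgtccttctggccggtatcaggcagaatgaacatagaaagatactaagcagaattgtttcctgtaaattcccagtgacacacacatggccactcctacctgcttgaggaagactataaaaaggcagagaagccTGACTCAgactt
Btg2: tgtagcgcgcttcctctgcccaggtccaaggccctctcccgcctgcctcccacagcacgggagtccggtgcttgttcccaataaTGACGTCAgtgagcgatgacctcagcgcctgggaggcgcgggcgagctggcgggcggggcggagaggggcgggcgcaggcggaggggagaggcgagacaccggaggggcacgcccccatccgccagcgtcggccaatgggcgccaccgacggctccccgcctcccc
Nfkbia: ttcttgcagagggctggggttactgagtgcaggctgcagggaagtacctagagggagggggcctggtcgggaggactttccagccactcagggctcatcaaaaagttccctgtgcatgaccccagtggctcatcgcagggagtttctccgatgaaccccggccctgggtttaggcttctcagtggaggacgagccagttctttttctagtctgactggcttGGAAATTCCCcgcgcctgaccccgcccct
In Il1a the AP-1 sequence TGACTCA lay 12 to 6 bases before the start. In Btg2, an antiproliferative early response gene, the cAMP response element TGACGTCA lay 166 to 159 bases before it. In Nfkbia, the inhibitor of NF-kB, the match to the NF-kB consensus lay 29 to 20 bases before it. The search covered both strands of the 250 bases before the start in 27025 genes of RefSeq. It found the AP-1 sequence in 5.16% of genes, the cAMP response element in 1.77% and the NF-kB consensus in 4.46%. Promoters matched 13 of the 15 early response genes measured. The AP-1 sequence was found in 0 of these 13, the cAMP response element in 2 (Btg2 and Dusp1) and the NF-kB consensus in 2 (Fos and Fosb). A match is a description of the letters, not a binding site.

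Il1a was either plainly present or nearly absent. In the 8 wells with Il1a it stood at 3578, 2162, 1223, 1045, 918, 840, 687 and 280 RPM. Without Il1a the highest well had 33.3 RPM, from 2 reads, the next had 15.7 RPM, and 14 of the 30 wells were at 0. The wells just inside and just outside the threshold, at 280 and 33.3 RPM, were therefore well apart. Wells with Il1a came from all plates, 2 of 10 on plate 1, 2 of 15 on plate 2 and 4 of 13 on plate 3. In uncrushed retina they made up 21.1% of deep wells (exact Clopper-Pearson 95% interval 9.55 to 37.3). At day 2 they made up 31.6% (6 of 19, 12.6 to 56.6) and at day 4 50% (11 of 22, 28.2 to 71.8). These intervals overlap and cover counting error only. With the wells high in S100a8 and S100a9 kept, the shares were 20.5% (8 of 39), 24% (6 of 25) and 45.8% (11 of 24). At a threshold of 200 RPM for Il1a they were 21.1%, 26.3% and 50%. At day 2 plate 2 held 0 wells with Il1a among 4, and at day 4 plate 3 held 0 among 2.

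**Figure D1:**
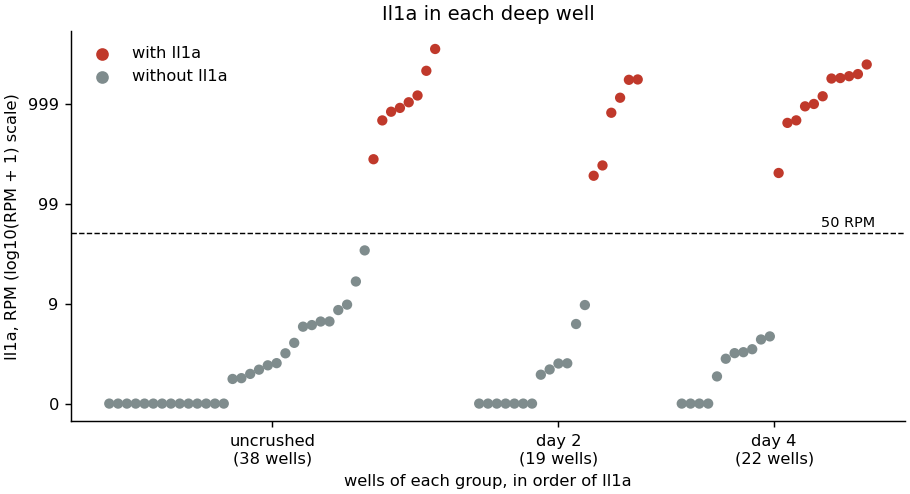
Il1a in each deep well, in RPM on a log10(RPM + 1) axis, with wells of each group in order of Il1a. The 8 uncrushed wells with Il1a (red) lie between 280 and 3578 RPM, and the 30 without (grey) at 33.3 RPM or less, below the dashed line at 50 RPM.

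Gm14023, a transcript on the opposite strand, was present in the same wells, at 74.7 to 1762 RPM in all 8 with Il1a and at most 4.63 RPM in the others. One of its exons overlaps an Il1a exon by 222 bases (chr2:129306471-129306692). Whether reads were counted by strand is not given in the sources used here, so reads in that stretch cannot be assigned to either gene, and both were left out of all counts below.

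The cells differed in how much RNA was detected. Wells with Il1a had 686 to 3006 genes at 50 RPM or more (median 1304.5), and those without had 248 to 1910 (median 695.5). Reads ran from 411812 to 1411618 with Il1a and from 60079 to 2347721 without. After thinning each well to 50000 reads, the median number of genes with a read was 1824.5 with Il1a and 1121 without, against 4068 and 2740.5 before thinning. Of the wells without Il1a, 16 lay within 686 to 3006 genes (median 1148). All 11 microglia markers were searched for. Wells with Il1a had 7 to 11 of them at 50 RPM or more, and those without had 1 to 10 (median 5), so some of the latter showed little of the labelled cell type. The summed level of the 11 markers was 22354 to 36863 RPM with Il1a and 161 to 50752 without. Because genes per well and microglia markers moved with Il1a, differences over all wells are followed, for the lists, by those with genes per well as a covariate and those against the 16 wells in range. The part of either in the result was not otherwise tested.

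Of the 2786 genes measured, that is at 50 RPM or more in at least 4 of the 38 wells, 275 were at least 4-fold higher with Il1a (9.87%) and 2 at least 4-fold lower (0.0718%). A fold here is the difference of mean log2(RPM + 10) between the wells, with 2 or more taken as 4-fold. This understates folds of genes at low levels. The median over all measured genes was 0.46, and it was -0.16 with genes per well as a covariate and 0.03 over the wells in range. List medians below stand beside these values. In 0 genes did every well with Il1a lie above every well without (0%). With genes per well as a covariate, 112 genes were 4-fold higher (4.02%) and 41 lower (1.47%), and over the wells in range 167 (5.99%) and 28 (1.01%). The counts of list members below stand beside these shares over all genes, 9.87%, 4.02% with the covariate and 5.99% in range. Of the 275 genes, 110 were still 4-fold higher with the covariate and 159 over the wells in range, and 155 passed when each well with Il1a was left out in turn. The share of wells with the gene was at least 50 points greater with Il1a in 108 genes (3.88%) and at least 50 points smaller in 3 (0.108%).

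The early response genes stood at the top of this list. All 15 measured of the 27 in the list were at least 4-fold higher with Il1a, against 9.87% of all genes, and their median difference was 3.49. The other 12 members were below the filter. The median was 2.67 with the covariate and 2.73 over the wells in range. Within plates 1, 2 and 3 it was 6.91, 2.55 and 4.78. Jun, a subunit of AP-1, ran from 1.01 to 24358 RPM with Il1a (median 10718) and from 0 to 5593 without (median 4.29). It was at 50 RPM or more in 6 of 8 wells with Il1a and in 5 of 30 without, so the groups overlapped. Its mean log2 level was 11.06 ± 4.77 (SD) with Il1a and 5.0 ± 2.65 without, a difference of 6.07, and 4.71 with the covariate. Fos, its partner, was found in 6 of 8 and 6 of 30 wells, with medians of 8817 and 9.57 RPM and a difference of 5.69. Junb and Egr1, further early transcription factors, differed by 5.52 and 5.49. Btg2 differed by 5.61 (6 of 8 and 4 of 30 wells, medians 3416 and 2.71 RPM). Zfp36, which destabilises cytokine messages including Tnf, differed by 5.47, and Ier2 by 4.79. The antisense gene Junos, which overlaps an exon of Jun and may hold its reads, differed by 4.46, and Zfp36 likewise overlaps Gm44710. Smaller differences were seen for Jund (2.86), Atf3 (3.07), Dusp1 (2.82), Klf2 (2.54) and Fosb (2.50).

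Most wells held either nearly all or nearly none of the early response genes. With Il1a, 6 of 8 wells had 12 to 15 of the 15 genes at 50 RPM or more, and 2 wells had 0 and 2. The well with 0, plate 2 A4, had the second highest Il1a, 2162 RPM, with Jun at 1.01 RPM, Fos at 6.08 RPM and 8 of 11 microglia markers. The well with 2, plate 3 C2, had Il1a at 918 RPM and 9 markers. Il1a was thus present in wells with the early genes at or near 0. Without Il1a, 24 of 30 wells had 2 or fewer of the early genes, 2 had 6 and 4 had 8 or more. The last 4 were plate 2 B2 with 14, plate 3 A5 with 13, plate 1 B4 with 12 and plate 2 A6 with 10, and their Il1a was 0, 0, 0.766 and 5.66 RPM. Of the 4, all but plate 2 A6, which had 1 marker, had 9 or 10 microglia markers. All 4 were among the 16 wells in range of genes per well, in which 12 had 2 or fewer early genes.

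**Figure D2:**
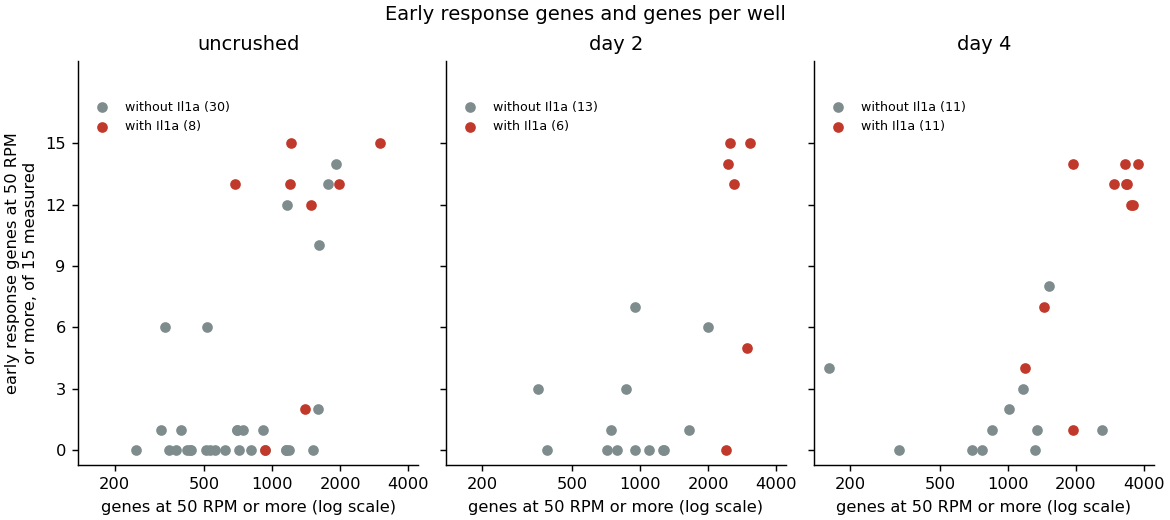
Number of early response genes at 50 RPM or more, of 15 measured, against genes at 50 RPM or more in the same well (log axis), for uncrushed, day 2 and day 4 wells. In uncrushed retina 6 of 8 wells with Il1a (red) have 12 or more of the genes, as have 3 of 30 without (grey), and wells without Il1a at the same number of genes lie mostly at 2 or fewer.

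Of the NF-kB pathway, the inhibitor Nfkbia differed most. It was at 50 RPM or more in 6 of 8 wells with Il1a and 3 of 30 without, with medians of 1112 and 2.35 RPM. It was at 0 and 1.42 RPM in the wells with Il1a that had 0 and 2 early genes. The difference was 4.39 (8.72 ± 3.42 against 4.33 ± 1.97), 3.82 with the covariate and 4.45 over the wells in range. Nfkbiz, a nuclear regulator of NF-kB targets, differed by 2.24 (3 of 8 and 1 of 30 wells). The subunit genes Nfkb1 and Rela differed by 1.61 and 1.6. These were the 4 measured members of 20, of which 2 were 4-fold higher. Their median was 1.92, 1.19 with the covariate and 1.62 over the wells in range. Within plates 1, 2 and 3 it was 3.51, 0.38 and 3.02, so plate 2 showed little difference. Tnfaip3, the inhibitor A20, was below the filter, in 2 of 8 wells and 0 of 30.

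The cytokines most often named beside Il1a were no higher with it in uncrushed retina by more than the spread between wells. Il1b, which encodes the other main interleukin 1, was at 50 RPM or more in 0 of 8 wells with Il1a (highest 12.8 RPM) and in 3 of 30 without (highest 2483 RPM), a difference of -0.46. Tnf, tumour necrosis factor, was found in 1 of 8 wells (597 RPM) and 1 of 30 (1150 RPM), a difference of 0.40. Gpr84, a receptor for medium-chain fatty acids, was found in 3 of 8 wells, all of them with 13 or more early genes, and in 2 of 30. Its difference was 1.11 (4.89 ± 2.21 against 3.78 ± 1.32), less than the spread between wells, and it was -0.94 within plate 2. Il1b and Tnf were below the filter for measured genes.

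Chemokine genes differed less evenly. Ccl4 and Ccl3, which attract macrophages, were each found in 4 of 8 wells with Il1a, and in 2 and 4 of 30 without. Their differences were 3.01 and 2.39, with 1.71 and -1.15 within plate 2. Ccl6 was found in 3 of 8 wells and in 14 of 30, a difference of -1.17. Of the 6 measured members of 18, 2 were 4-fold higher, and the median was 1.69, 0.92 with the covariate and 1.36 over the wells in range. Among processing genes of the interleukin 1 family, Pycard, the inflammasome adaptor ASC, was found in 5 of 8 and 3 of 30 wells, a difference of 2.63. It was the single 4-fold member of 4 measured in a list of 22, whose median was 1.51, 0.74 with the covariate and 1.33 over the wells in range. The protease gene Capn2 and the receptor gene Il1r1 were at 50 RPM or more in 0 wells with Il1a, and Nlrp3 in 2 of 8 against 0 of 30.

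Some receptor and kinase genes of the Fc receptor and ITAM list were higher with Il1a. Lyn, a Src-family kinase of immune receptor signalling, was at 50 RPM or more in 7 of 8 wells with Il1a (0.708 to 1741 RPM, median 484) and in 2 of 30 without (highest 110 RPM). The exception with Il1a was plate 3 C2. The difference was 4.72 (8.41 ± 2.39 against 3.69 ± 0.87), 5.47, 5.10 and 3.84 within the 3 plates, and 4.30 with the covariate. Vav1, an exchange factor for small GTPases downstream of immune receptors, differed by 3.10. Of 14 measured members of the Fc receptor and ITAM list of 15, 6 were 4-fold higher, with a median of 1.66 that was 0.49 with the covariate and 0.70 over the wells in range. Tyrobp and Fcer1g, the ITAM adaptors themselves, differed by 0.11 and 0.01, and Syk, the kinase that they recruit, by 0.96. Cd14, the co-receptor of Tlr4, was found in 6 of 8 and 5 of 30 wells, a difference of 3.84. It was the 1 member 4-fold higher of 2 measured in the list of 21 Toll-like receptors and adaptors. Of the receptors themselves, all below the filter, Tlr6 was found in 3 of 8 wells, Tlr1, Tlr2 and Tlr13 in 2 each and Tlr4 in 1, all in 0 of 30. Tlr3 and Tlr7 were found in 0 of 8 and 1 of 30 wells each, and Tlr5, Tlr8 and Tlr9 in 0 wells.

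**Figure D3:**
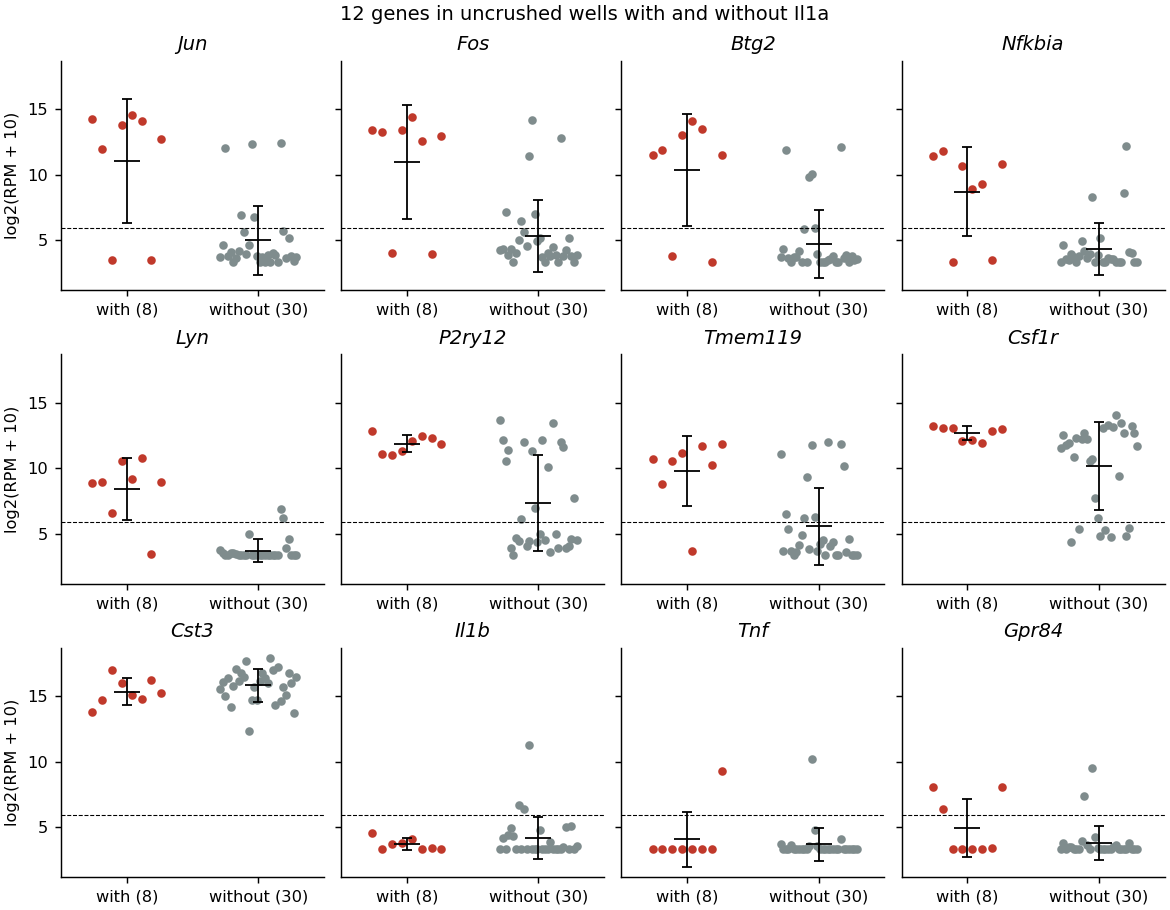
Levels of 12 genes in the 8 uncrushed wells with Il1a (red) and the 30 without (grey), as log2(RPM + 10), with mean and SD over wells and a dashed line at 50 RPM. Jun, Fos, Btg2 and Nfkbia are high in 6 of 8 wells with Il1a, Lyn in 7 of 8 and P2ry12 in all 8, whereas Il1b and Tnf are low in nearly all wells of both kinds.

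Homeostatic microglia genes were higher with Il1a, not lower. Of 20 measured in the list of 22, 13 were 4-fold higher, against 9.87% of all genes, and 0 lower. With the covariate 6 were 4-fold higher and over the wells in range 9, against 4.02% and 5.99% of all genes. The median was 2.57. It was 1.25 with the covariate and 1.47 over the wells in range, and 2.69, 2.75 and 2.31 within the plates. P2ry12, the ADP receptor that guides microglial processes, was found in all 8 wells with Il1a, at 2096 to 7245 RPM, and in 14 of 30 without, at 0 to 13438 RPM. Its difference was 4.57, and 2.55 with the covariate, and one of its exons overlaps Med12l. Tmem119 (7 of 8 and 9 of 30 wells) differed by 4.27, Gpr34 by 4.26, P2ry13 by 3.64 and Olfml3 by 3.51. Csf1r, the receptor for the microglial survival factor, was present in 8 of 8 and 23 of 30 wells and differed by 2.51. Cst3, a cystatin abundant in microglia, was found in every one of the 38 wells and differed by -0.47. The list includes all of the microglia markers but Aif1, so its difference moved with the marker content given above. Wells with at least 6 of the 11 markers (8 with and 14 without Il1a) were compared as a setting chosen after seeing the data. Of 3209 genes measured in them, 171 were 4-fold higher, a count over all genes and not of this list. The homeostatic median lay between 1.23 and 3.41 over all settings, this one included.

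Lysosomal and damage-associated genes were higher over all wells, and 0 of them were 4-fold higher with genes per well as a covariate. Of 19 lysosomal genes measured in 20, 8 were 4-fold higher, with a median of 1.71, and a median of 0.43 with the covariate and 0.64 over the wells in range. Ctsh, a cathepsin, differed by 3.36 and Cd68, a lysosomal membrane protein, by 3.22. Of 13 damage-associated genes measured in 22, 6 were 4-fold higher with a median of 1.49, 0.94 with the covariate and 0.81 over the wells in range. The 6 were Cd9, Cd68, Ctsb, Ctsd, Ctsl and Trem2, which resting microglia also express. Of other members, Clec7a was found in 2 of 8 and 5 of 30 wells, Axl in 3 and 2, Apoe in 1 and 4, Lpl in 1 and 1, Itgax in 0 and 2 and Cst7 in 0 and 1. Spp1, Gpnmb, Igf1 and Lgals3 were at 50 RPM or more in 0 of the 38 wells.

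Genes listed for the primed microglia of aged or diseased brain were not 4-fold higher in these wells. Of 10 measured genes of the 20 listed for it, 0 were 4-fold higher or lower, with a median of 0.79 that was -0.84 with the covariate and -0.29 over the wells in range. Cd74, the invariant chain, and H2-Ab1, of the class II complex, were found in 3 and 2 of 8 wells against 2 and 2 of 30. They differed by 2.00, just under the 4-fold line, and 1.42. Lyz2 differed by 1.40 and by -1.0 with the covariate, and Apoe by -0.41. Axl, Clec7a and Itgax were found in 3, 2 and 0 of 8 wells. The wells are therefore called here by Il1a alone. Interferon response genes had 0 of 11 measured past 4-fold and a median of 0.55 (-0.44 with the covariate and 0.38 over the wells in range), and Ifitm3 differed by -1.06. Of 8 complement genes measured in 13, 3 were 4-fold higher, Itgb2 (3.39), C3ar1 (2.61) and Itgam (2.23), the integrin chains and a receptor, and the list's median was 1.69, 0.67 with the covariate and 1.01 over the wells in range. C1qa, C1qb and C1qc, which form the first complement component, differed by 1.15, 0.53 and 1.39.

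Genes of the RhoA and ROCK pathway, named in the title of the study, differed little. Of 13 measured in 21, 2 were 4-fold higher, where the share over all genes was 9.87%. They were Rhob (2.73), itself an early response gene, and Arhgdia (2.03). The median was 0.53, near that of all genes. It was -0.10 with the covariate and 0.11 over the wells in range, where all genes gave -0.16 and 0.03. Rhoa differed by -0.30, and Rock1 and Rock2, its effector kinases, were below the filter, in 1 and 2 of 8 wells and 1 and 1 of 30. Housekeeping lists had medians at or below 0.50 over all wells, where that of all genes was 0.46. The median was 0.50 for 7 glycolysis genes, 0.31 for 19 of oxidative phosphorylation and -0.20 for 20 ribosomal protein genes, with 0 members 4-fold higher or lower. Within plates 1, 2 and 3 the signs were mixed. Glycolysis gave 1.95, 0.57 and -0.37, oxidative phosphorylation -0.43, 0.67 and -0.33, and ribosomal protein genes -0.73, 1.97 and -1.16. With the covariate the medians over all plates were -0.62, -0.47 and -0.65, and over the wells in range -0.10, -0.23 and -0.50. With the covariate 2, 1 and 3 members were 4-fold lower, and in range 2, 1 and 2. The shares over all genes were 1.47% and 1.01%.

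Few genes were 4-fold lower with Il1a, although 947 of the 2786 lay below 0. The 2 past 4-fold were Rpl21 (-2.27, 3 of 8 and 21 of 30 wells), a ribosomal protein gene with many pseudogenes, and the unnamed model Gm28437 (-2.21, found in all wells), both outside the rule for named genes and named after their values were seen. Within that rule the lowest were Hsp90ab1, a chaperone (-1.72, 4 of 8 and 18 of 30 wells), and Eef2, the elongation factor of translation (-1.72, 3 of 8 and 19 of 30). Wdr38 (-1.66) shares exonic sequence with Rpl35 and Arpc5l. Cd48, an adhesion receptor of leukocytes, was found in 1 of 8 and 9 of 30 wells (-1.61). Snx10, Rnasek, Timm13, Srsf9, Snw1 and Slirp were found in 0 of 8 wells and in 7 or 8 of 30, Snw1 and Slirp sharing exonic sequence. None of these named genes but Gm28437 was found in every well. Within the endoplasmic reticulum, in contrast, the chaperone Hspa5 was higher, by 3.84 (7 of 8 and 7 of 30 wells).

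The same split was made in the crushed groups, whose wells had no part in choosing the 8 and 30. At day 2, 709 of the 2786 genes were 4-fold higher with Il1a (25.4%) and at day 4, 623 (22.4%), and 1 (0.0359%) and 0 (0%) were 4-fold lower. The medians of genes per well with and without Il1a were 2558 and 949 at day 2 and 3290 and 1007 at day 4. Of the 275 genes 4-fold higher in uncrushed wells, 169 were so at day 2 (61.5%) and 159 at day 4 (57.8%), and 263 and 272 lay above 0. Over all 2786 genes, 2124 (76.2%) lay above 0 at day 2 and 2345 (84.2%) at day 4. Early response genes had medians of 4.28 and 4.18, which were 3.66 and 2.96 with genes per well as a covariate. Homeostatic genes had medians of 3.84 and 2.26, and 2.08 and 0.61 with the covariate, where the medians over all genes were 0.09 and 0.05. At day 2, 4 of 6 wells with Il1a and 0 of 13 without had 8 or more early response genes, and at day 4, 8 of 11 and 1 of 11. Nfkbia was found in 10 of 11 day 4 wells with Il1a and 0 of 11 without, a difference of 6.10.

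Tnf and Gpr84 were both found mostly in wells with Il1a in the crushed groups. Tnf was found in 3 of 6 day 2 wells and 8 of 11 day 4 wells with Il1a, against 0 of 13 and 1 of 11 without, with differences of 2.68 and 3.46 where uncrushed wells gave 0.40. Gpr84 was found in 5 of 6 and 10 of 11 wells with Il1a, against 1 of 13 and 2 of 11, with differences of 3.03 and 4.04 beside 1.11. All of these differences are without genes per well as a covariate. The medians over all measured genes were likewise larger after crush, 0.98 at day 2 and 1.05 at day 4, beside 0.46 in uncrushed wells. Il1b was found in 0 of 6 and 2 of 11 wells with Il1a, against 1 of 13 and 0 of 11 without. The 2 day 4 wells were plate 1 F1 (3544 RPM, 2 of 11 microglia markers) and plate 1 F6 (950 RPM, 9 markers). Both are among the wells whose labels disagree. Whether the Tnf and Gpr84 differences differ between the groups was not tested, since each group is 1 sample. Cd48, lower with Il1a in uncrushed wells, differed by 3.4 at day 2 and 3.84 at day 4 in the other direction.

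**Figure D4:**
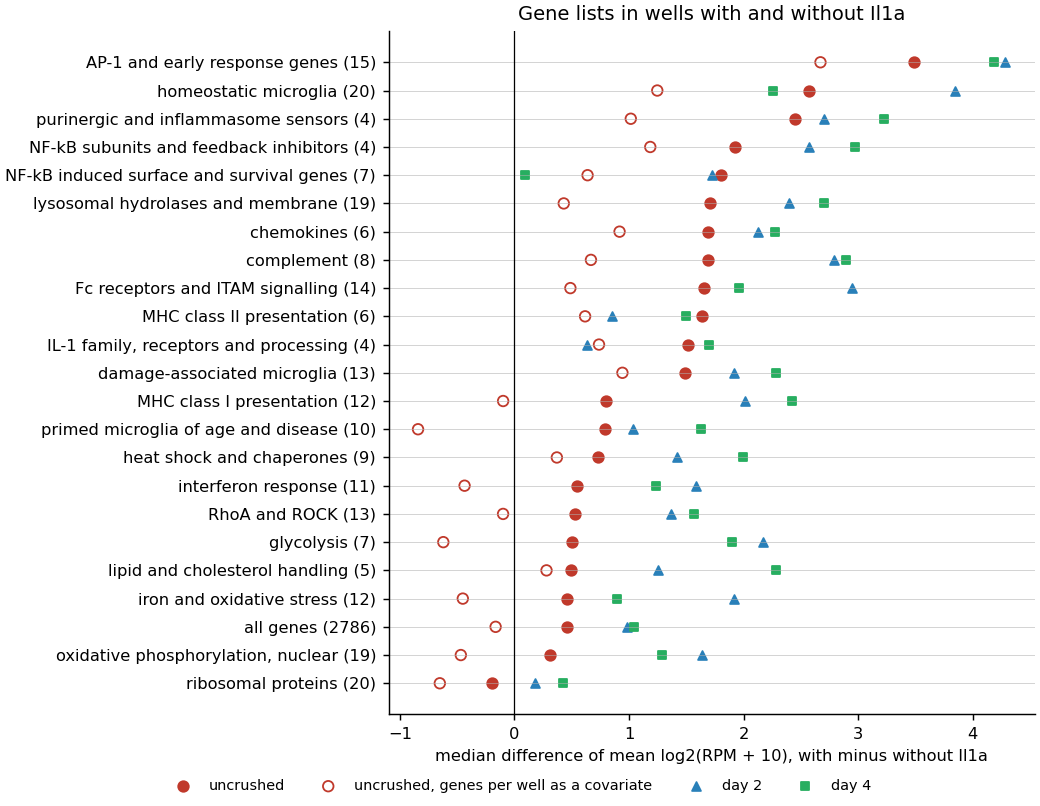
Median difference of mean log2(RPM + 10), wells with minus wells without Il1a, for each gene list with 4 or more measured genes (number in brackets). Red points are uncrushed wells, open red circles the same with genes per well as a covariate, blue triangles day 2 and green squares day 4. Early response genes lie highest in uncrushed wells (3.49) and remain above all other lists with the covariate (2.67).

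Markers of other cell types were found in some wells of both kinds. S100a8 and S100a9, which the choice of wells had used, were at 50 RPM or more in 0 of 8 wells with Il1a and 3 of 30 without. Of the 12 neutrophil markers, wells with Il1a held at most 1 (summed level 0 to 1638 RPM) and those without at most 2 (0 to 474 RPM), the one in 4 wells with Il1a being Csf3r, which was found in 2 of 30 wells without and differed by 2.42. Monocyte markers such as Ccr2 and Ly6c2 were at 50 RPM in 0 wells, and Plac8 in 1 without Il1a. Of 8 perivascular macrophage markers, wells held at most 1 with Il1a (0 to 345 RPM) and at most 3 without (0 to 7763 RPM), and Mrc1, F13a1 and Pf4 were each found in 1 of 30. The B cell list was represented by Ighm, in 4 of 8 and 11 of 30 wells, and Cd79b, in 1 and 0. Glul and Slc1a3, of Muller glia and astrocytes, were found in 4 and 2 of 8 wells and in 9 and 4 of 30. Of the cone markers, Gngt2 was found in 5 of 8 and 14 of 30 wells and Pde6h in 4 and 8. Of 13 rod markers, wells held at most 2 with Il1a (0 to 397 RPM) and at most 4 without (0 to 5724 RPM). The part of these cells in the result was not tested beyond leaving out wells with 3 or more markers of another type, which left 7 wells with Il1a and 26 without.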

How the data were processed

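The cDNA of single sorted retinal cells was amplified and tagmented (Nextera XT), per the labels' protocols. The submitters' processing notes name Trim Galore 0.4.4, cutadapt 1.16, Trimmomatic 0.36, STAR 2.7.2b and featureCounts 1.6.1, without their settings, and the builds mm10 and GRCm38.p6. The values are FPKM for 55364 genes, deposited by the authors, without molecular identifiers. FPKM times gene length in kilobases gave RPM, and 1000000 over the most frequent value above 0 gave the reads of a well. Of the values under 100 reads, 36.3% were whole within 0.01, the rest being parts of reads, so no count test was used. Differences are of mean log2(RPM + 10) over wells, and a gene was measured at 50 RPM or more in 10% of wells. Genes named were Il1a, Il1b, Tnf and Gpr84, the 15 highest and 15 lowest differences of the same sign in 3 plates, the 8 largest differences in share each way and up to 5 members of each list. Unnamed models, pseudogenes, ribosomal protein and mitochondrial genes and small RNAs were left out of these ranks. Other list members are named by role. The wells, 27 pathway lists and 18 marker lists were chosen with earlier results of these data known. The calculation of the differences was checked on simulated wells with known changes. Those wells had no built-in difference in genes per well between the groups, so the check says nothing about that part of the calls. Intervals are exact Clopper-Pearson. Scripts ran in Python 3.11.15 with pandas 2.3.3, numpy 2.4.6, scipy 1.17.1 and matplotlib 3.10.9.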

Additional observations from a re-analysis of the deposited data

How the results depend on the processing

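The number of genes 4-fold higher with Il1a, 275 of 2786 measured, was 756 with a pseudocount of 1 RPM and 80 with 50 RPM. It was 121 of 867 measured when genes had to be found in 25% of wells, and 432 of 2723 without plate 2. Over wells in range of genes per well it was 167 of 2786, and with that number as a covariate 112 of 2786. Settings added after seeing the data gave 171 of 3209 (at least 6 of 11 microglia markers) and 114 of 2786 (genes per well and plate as covariates). Leaving out each well with Il1a gave 240 to 357, with 2475 to 2744 genes measured. Genes measured numbered 3021 without plate 1, 2351 without plate 3, 2160 without wells holding markers of other cells and 3399 at 200000 reads. Counts are therefore not all out of the same set of genes. The number 4-fold lower, 2, was 40 and 1 with those pseudocounts, 1 with Il1a at 20 RPM, 28 in range, 41 with the covariate, 4, 45 and 6 without plates 1, 2 and 3, 4 with plate as a term, 5 without wells holding markers of other cells, 7 at 200000 reads, 27 and 46 under the added settings, and 1 to 9 when each well was left out. The cause was not tested. The damage-associated median, 1.49, was 2.09 with 1 RPM, 0.81 in range, 2.14 without plate 1, 0.72 without plate 2 and 0.71 with 6 markers. The oxidative phosphorylation median, 0.31, was -0.41 without plate 2, -0.47 with the covariate and -0.48 with plate added. Early response genes stayed between 2.43 and 5.07 and homeostatic genes between 1.23 and 3.41 over all 26 settings. Of 54 named genes past 4-fold, Fcgr3 (2.22) turned sign, at -0.16 and -0.11 with the covariate alone and with plate. Without the day 4 wells of plate 1, 894 of the 2786 genes were 4-fold higher at day 4, beside 623 with them.

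Leaving out mitochondrial genes was not run, as 0 such rows were in the table used. No paired analysis was possible because wells carry no replicate numbers and no test was run. With 8 wells with Il1a, shares of wells are coarse.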

Other observations

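Gene lists not described above ranged widely. Of 4 measured purinergic and inflammasome sensors, 2 were 4-fold higher with Il1a in uncrushed wells, P2ry12 and P2ry13 (3.64), and the median was 2.45, 1.02 with genes per well as a covariate and 1.59 over the wells in range. Of 6 measured class II presentation genes, 1 was 4-fold higher, Cd86 (2.07), a costimulatory receptor ligand, and the median was 1.64, 0.62 with the covariate and 1.08 over the wells in range. Of 12 measured genes of iron handling and oxidative stress, 2 were 4-fold higher, where the share over all genes was 9.87%. They were Gpx1 (3.01), a glutathione peroxidase, and Slc11a1 (2.21), a metal transporter of phagosomes. The median was 0.46, that of all genes. It was -0.45 with the covariate and -0.22 over the wells in range, with 0 members 4-fold higher in either. Of 12 measured class I presentation genes, 2 were 4-fold higher, against 9.87% of all genes. They were H2-D1 (2.13) and Calr (2.16), the median was 0.80, and B2m differed by -0.48. With the covariate the class I median was -0.10, and over the wells in range 0.25, with 0 members 4-fold higher in either. Among 9 measured chaperone genes the median was 0.73, and among 7 measured NF-kB induced surface and survival genes 1.80, with 1 member 4-fold higher, Bcl2a1b (2.31), whose reads may be shared with its near-identical copies. With the covariate these medians were 0.37 and 0.64, and over the wells in range 0.37 and 0.97. Of the NF-kB induced genes, 0 were 4-fold higher under either setting. Among proliferation genes Mki67 and Top2a were at 50 RPM or more in 0 of the 38 wells.

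Pttg1ip, chosen after its values were seen, was at 50 RPM or more in 5 of 8 wells with Il1a (median 364 RPM, highest 4602) and in 0 of 30 without (highest 31.5 RPM).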
